A study of Homo sapiens with 22 samples.

Results

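Genes for subunits of the 5 respiratory chain complexes were measured in HEK293T cells, a human embryonic kidney line, across 6 groups of siRNA and heat treatment. The genes were chosen by symbol alone: every array probe whose gene symbol follows the naming pattern of complex I (NDUFA, NDUFB, NDUFC, NDUFS and NDUFV), complex II (SDHA to SDHD), complex III (UQCR), complex IV (COX4 to COX8) or complex V (ATP5) was taken. The pattern took 104 of 48803 probes, for 76 genes. Of these, 92 probes for 68 genes could be tested, among 15324 tested probes for 10147 genes. A probe was tested where its signal was detected, at a detection p-value below 0.01, on at least 3 arrays, and a gene with several such probes was read from its brightest.

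Complexes I and II pass electrons from NADH and succinate to ubiquinone, complex III hands them to cytochrome c, and complex IV, cytochrome c oxidase, passes them to oxygen. Complexes I, III and IV pump protons across the inner mitochondrial membrane, and complex V, the ATP synthase, uses the return flow to make ATP. Most subunits are encoded in the nucleus and imported, while a core set is encoded by mitochondrial DNA.

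Cells had been transfected with siRNA against Sat III, the non-coding RNA of the pericentromeric satellite III repeats that heat shock induces, or with a scrambled siRNA. In each arm, cells grown at 37 °C were left untreated, were kept at 42 °C for 1 h, or were kept at 42 °C for 1 h and given 6 h to recover. Arrays numbered 3 untreated, 3 heat shock and 4 recovery for Sat III siRNA, and 4 of each for scrambled siRNA. The Sat III siRNA untreated and heat shock groups have no replicate 3. Any value on replicates 3 and 4 that uses those groups rests on replicate 4 alone there. The labels give only replicate numbers within 1 cell line, so each p-value is set against sample-to-sample spread that could be technical only, and a change in RNA per cell cannot be told apart from a change in the number of cells in such bulk samples.

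The arrays detected 13176 to 14863 probes each. Median raw intensity was 56.5 to 64.6 on replicates 1 and 2 and 48.9 to 54.8 on replicates 3 and 4, a split that the labels do not describe. Values within each pair of replicates are therefore given for some of the calls. Of 8 genes listed as markers of the HEK293 line, 5 were detected on all 22 arrays, among them VIM and NEFM. None of the 3 endothelial markers was detected on every array, and 1 of 4 keratinocyte, 1 of 6 fibroblast, 1 of 5 leukocyte and 1 of 5 muscle markers with a probe were. HSPA6, a heat-induced chaperone gene, lay between 12.58 and 13.72 in normalised log2 intensity on the Sat III siRNA heat shock arrays, against 4.56 to 4.69 on the Sat III siRNA untreated arrays. It lay between 12.49 and 13.74 on the scrambled heat shock arrays, against 4.59 to 4.89 on the scrambled untreated arrays. No probe was named for Sat III, so the knockdown itself is not checked here.

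The promoters of 3 genes with the smallest adjusted p-values are shown first, from the RefSeq table for GRCh38.p14, each from 250 bases before the annotated start to 50 bases after it. They are shown because nuclear respiratory chain genes are known to share binding sites for NRF1 and for ETS factors such as GABP. Capitals mark matches, on either strand, to CGCANGCG (NRF1), CCGGAAG (ETS and GABP), AAGATGGCG (YY1) or GAANNTTC (a pair of heat shock element units).
UQCR10, chr22:29767119-29767418, plus strand: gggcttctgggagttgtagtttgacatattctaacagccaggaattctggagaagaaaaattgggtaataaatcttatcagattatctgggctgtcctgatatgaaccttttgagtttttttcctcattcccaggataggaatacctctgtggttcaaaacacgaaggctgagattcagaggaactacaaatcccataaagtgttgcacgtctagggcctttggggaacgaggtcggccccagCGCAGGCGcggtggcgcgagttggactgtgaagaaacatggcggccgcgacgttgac
NDUFB2, chr7:140696458-140696757, plus strand: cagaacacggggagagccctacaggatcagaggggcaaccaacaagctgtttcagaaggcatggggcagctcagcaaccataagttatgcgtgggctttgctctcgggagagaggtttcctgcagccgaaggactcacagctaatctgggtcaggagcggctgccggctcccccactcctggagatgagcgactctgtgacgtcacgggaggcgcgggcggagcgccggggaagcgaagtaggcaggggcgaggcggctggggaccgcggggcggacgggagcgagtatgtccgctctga
COX5B, chr2:97645812-97646111, plus strand: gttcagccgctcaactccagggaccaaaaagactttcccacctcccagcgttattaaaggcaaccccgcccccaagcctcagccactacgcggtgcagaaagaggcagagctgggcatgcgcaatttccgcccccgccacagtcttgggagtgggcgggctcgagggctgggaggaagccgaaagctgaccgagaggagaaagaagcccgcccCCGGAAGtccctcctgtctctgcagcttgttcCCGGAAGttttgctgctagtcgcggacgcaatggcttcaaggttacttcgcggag

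The UQCR10 window held 1 match to the NRF1 motif, at bases 244 to 251. The COX5B window held the ETS motif at bases 214 to 220 and again at bases 246 to 252. The NDUFB2 window held none of these letters, which says nothing of whether the factors bind there. No motif overlapped another in these windows.

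Among the 62 respiratory chain genes with a promoter in that table, 38.7% held the NRF1 motif, against 12% of 27305 genes. The ETS motif was in 30.6% of the respiratory chain promoters, against 12.2% of all promoters. The YY1 motif was in 11.3%, against 2.14% of all promoters. The heat shock element pair was in 4 of 62 (6.45%), against 8.21% of all promoters. By complex, the NRF1 motif was in 10 of 29 promoters of complex I, 2 of 2 of complex II, 3 of 6 of complex III, 2 of 12 of complex IV and 7 of 13 of complex V. These are matches of letters and were not tested.

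Nearly all tested genes were detected throughout. The used probe was detected on all 22 arrays for 66 of the 68 tested genes, against 82.5% of all tested genes, and the other two were NDUFC2 on 11 arrays and ATP5MK on 4. The 8 genes that were not tested had no detected probe on any array. They were NDUFA5, NDUFB4 and NDUFS6 of complex I and, in complex IV, the isoforms COX6A2, COX7A1, COX6B2, COX7B2 and COX8C, which are known from heart, muscle or testis. COX4I2, the lung isoform of subunit 4, also had a probe and was not tested, although the pattern does not take it. By complex, 29 of 32 genes of complex I, 3 of 3 of complex II, 9 of 9 of complex III, 9 of 14 of complex IV and 18 of 18 of complex V were tested. The pattern also took 2 pseudogenes, ATP5F1EP2 and UQCRBP1, and UQCRHL, a near copy of UQCRH, whose signal may be shared with the parent genes.

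Respiratory chain genes varied little between the 6 groups. The range of a gene's 6 group means had a median of 0.19 on the log2 scale over the 68 genes, against 0.36 over all tested genes. It stayed under 0.25 for 49 of 68 (72.1%), against 25.1% of all tested genes. The spread between replicates of a group was also smaller, with a median residual SD of 0.11 against 0.15. The sets compared here were not matched for signal strength. All tested genes include more that were not detected on every array, and a link of these values to signal was not tested. UQCR10, a small subunit of complex III, had the widest range, at 0.80. In 9 comparisons between groups, 8 of the 68 genes (11.8%) passed an adjusted p of 0.05 at least once, against 4353 of 10147 genes (42.9%). They were NDUFB2 in complex I, UQCR10 and UQCR11 in complex III, COX5B, COX6A1 and COX7A2 in complex IV, and ATP5MC1 and ATP5MC3 in complex V. No gene of complex II passed.

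**Figure D1:**
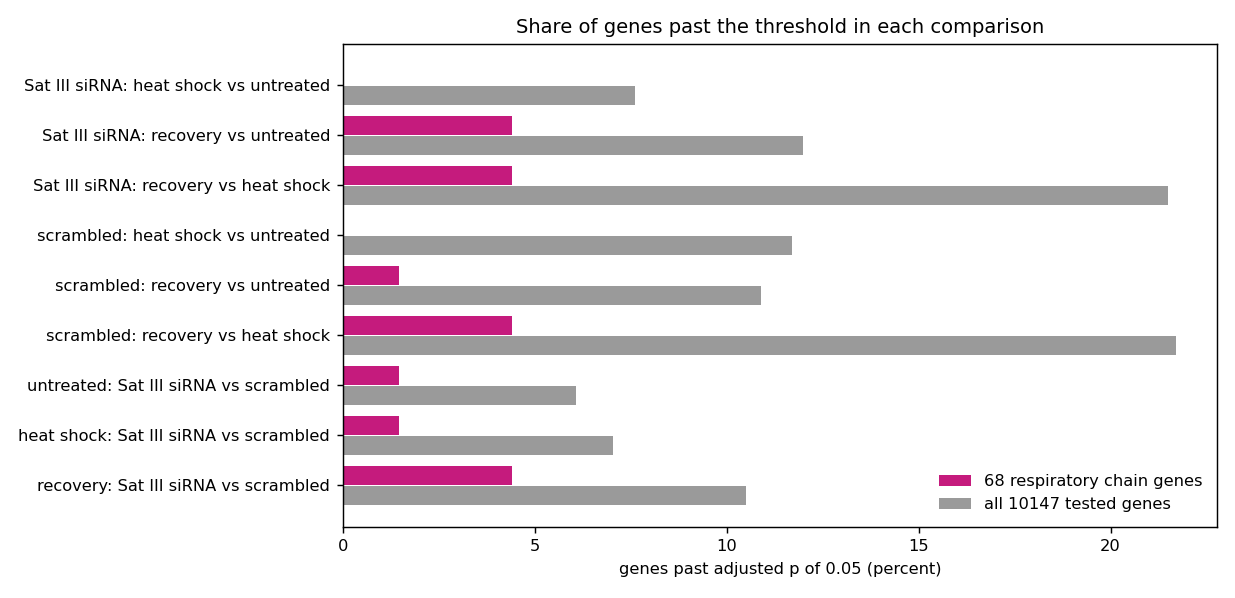
Percent of genes past an adjusted p of 0.05 (limma) in each of 9 comparisons, for the 68 respiratory chain genes (upper bars) and all 10147 tested genes (lower bars). The respiratory chain bar is at most 4.41% and is shorter than the bar for all genes in each of the 9 comparisons.

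These shares rest on quantile normalisation. When the arrays were scaled to a common median instead, none of the 15 calls of respiratory chain genes passed, with limma adjusted p-values of 0.11 to 0.96, although each kept its direction. Calls over all tested genes also fell with that scaling, to 0.424% to 4.5% in the 9 comparisons. That scaling put the median of all genes at −0.10 in the Sat III siRNA heat shock comparison and −0.12 in the scrambled heat shock comparison. Relative to those, the respiratory chain medians were 0.040 and 0.048 above.

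Heat shock for 1 h left the chain without a call. In Sat III siRNA cells, 0 of 68 genes passed in heat shock against untreated cells, where 7.62% of all tested genes did, and 2 had an unadjusted limma p under 0.05. In scrambled cells, 0 of 68 passed in heat shock against untreated cells, where 11.7% of all genes did, and 3 had an unadjusted limma p under 0.05. The 95% interval of the change lay within 0.5 log2 units either side of 0 for 66 of 68 genes in Sat III siRNA cells and 67 of 68 in scrambled cells. These intervals are narrow partly because the chain genes vary little between replicates, with a median residual SD of 0.11 against 0.15 for all genes. The counts of intervals and of unadjusted p-values are given without the share over all genes, so they do not set the chain apart. The median change was −0.0080 in Sat III siRNA cells, against −0.018 for all genes, and −0.015 in scrambled cells, against −0.022 for all genes. The brightest subunit of each complex stayed close to 0. In Sat III siRNA cells the log2 change was −0.07 for NDUFA1, 0.11 for SDHC, −0.05 for UQCRQ, −0.11 for COX7C and −0.00 for ATP5F1B, the catalytic beta subunit of the ATP synthase. In scrambled cells the same genes stood at −0.05, 0.08, −0.11, −0.03 and −0.01.

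**Figure D2:**
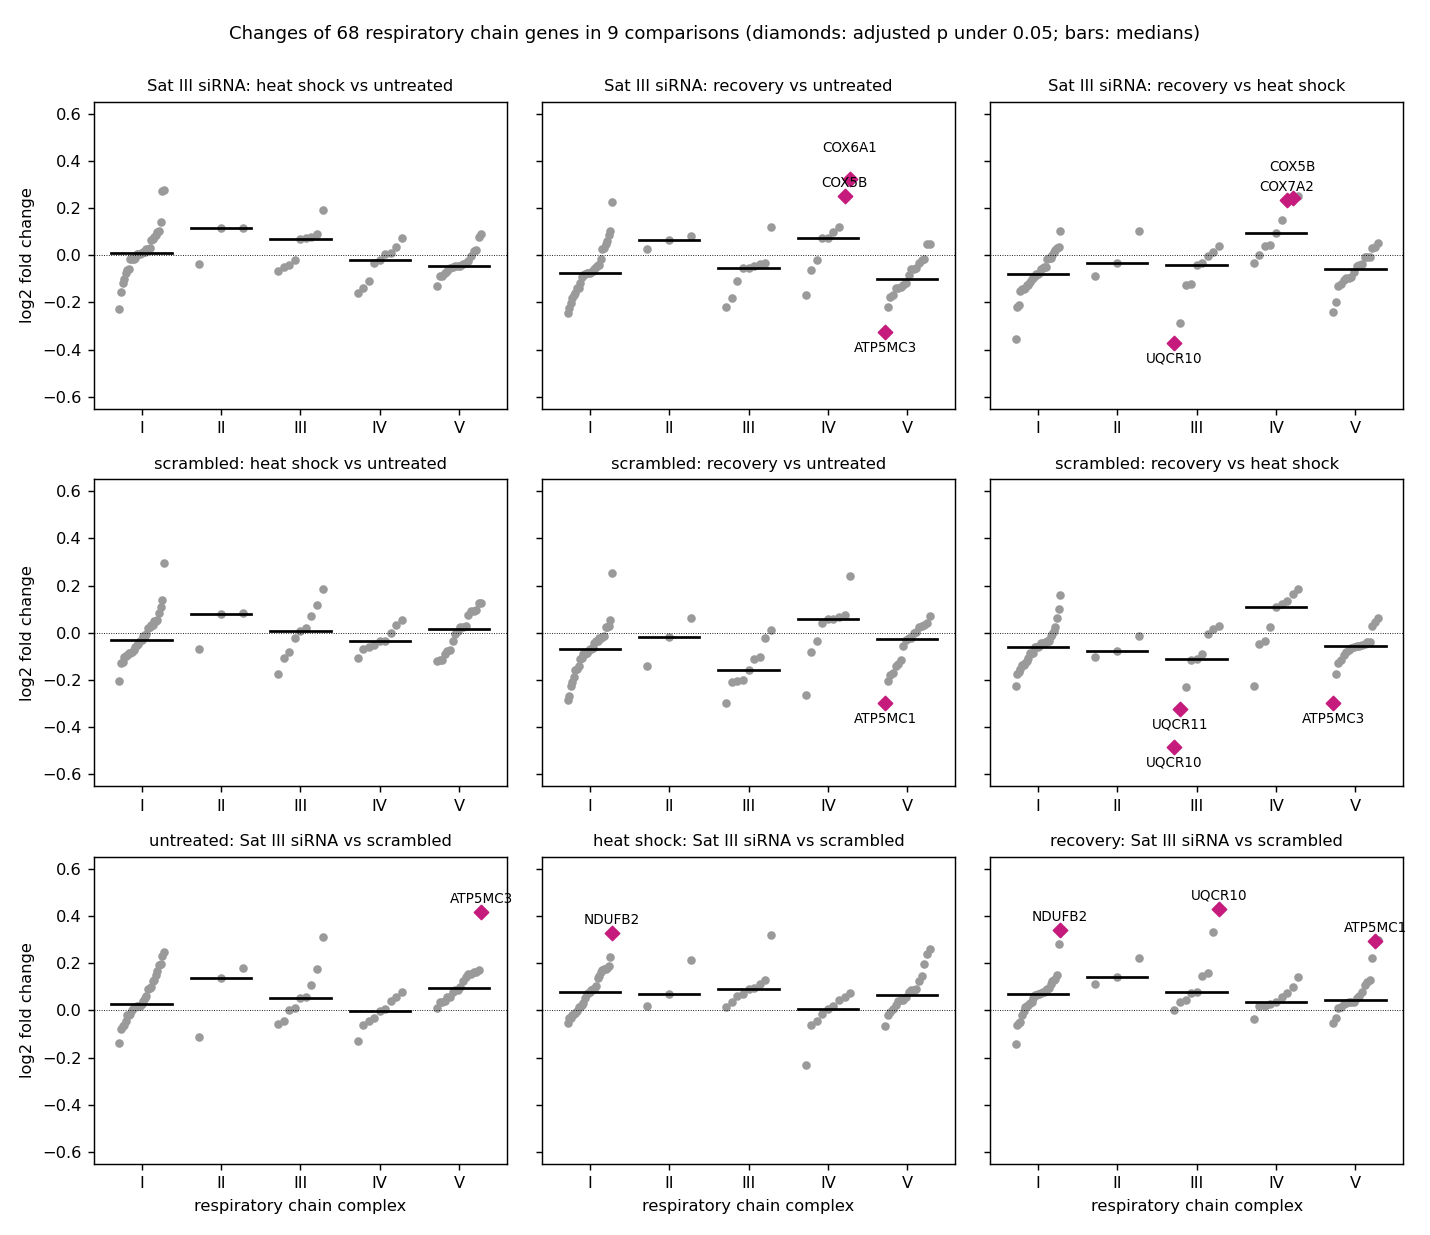
Log2 fold change of each of the 68 genes (points) by complex in 9 comparisons, with bars at the median of each complex. Diamonds mark the 15 changes past an adjusted p of 0.05, none of them in the 2 panels of heat shock against untreated, and complex IV has the only positive median in the recovery against heat shock panels, which turned negative (−0.049 and −0.0097) with median scaling.

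ATP5IF1, which encodes the inhibitor that blocks ATP hydrolysis by complex V, was read by 2 probes for the same transcript that differed in direction. The dimmer probe read 7.39, 7.65 and 7.91 on the Sat III siRNA heat shock arrays, against 7.005, 7.007 and 7.272 on the Sat III siRNA untreated arrays. It read 7.33, 7.65, 7.73 and 7.41 on the scrambled heat shock arrays, against 7.36, 7.16, 6.93 and 7.14 on the scrambled untreated arrays. The groups did not overlap in Sat III siRNA cells and overlapped in scrambled cells through replicate 1 of each.

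Over all tested probes, the dimmer probe rose by 0.55 ± 0.14 (SE) in log2 in Sat III siRNA cells (limma, adjusted p = 0.0129) and by 0.39 ± 0.12 in scrambled cells (limma, adjusted p = 0.0394). The brighter probe, which was used for the gene, gave −0.03 and −0.11, and did not pass. In recovery against untreated Sat III siRNA cells the dimmer probe gave 0.42 ± 0.13 (limma, adjusted p = 0.0419), beside −0.12 on the brighter one. NDUFV3, an accessory subunit of complex I, also had probes of opposite sign. In scrambled recovery against heat shock its dimmer probe, detected on 15 arrays, gave −0.48 ± 0.16 (SE; limma, adjusted p = 0.0396) beside 0.16 on the used probe.

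At 6 h after heat shock the median gene of the chain was slightly lower, and the complexes did not share a direction. Recovery against heat shock gave a median log2 change of −0.048 in Sat III siRNA cells, against −0.0032 for all genes, with 49 of 68 genes negative. In scrambled cells it gave −0.055, against −0.0033 for all genes, with 52 of 68 negative. The genes share arrays and are not replicates, so these counts of signs were not tested. The size of this shift differed between the replicate pairs. Replicates 1 and 2 gave −0.010 in either arm, while replicates 3 and 4 gave −0.12 in Sat III siRNA cells and −0.094 in scrambled cells. The value of −0.12 has replicate 4 as its only heat shock array.

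By complex, the Sat III siRNA medians for recovery against heat shock were −0.078 for complex I, −0.033 for complex II, −0.043 for complex III, 0.093 for complex IV and −0.059 for complex V. The scrambled medians were −0.058, −0.075, −0.11, 0.11 and −0.058 in the same order. Complex IV stood above 0 in both arms, with 7 of 9 genes positive in Sat III siRNA cells and 6 of 9 in scrambled cells, but its median was −0.049 and −0.0097 with median scaling of the arrays. That scaling put the medians of all genes at −0.0073 and 0.014. For recovery against untreated, the complex IV medians were 0.075 in Sat III siRNA cells and 0.058 in scrambled cells, but −0.071 and −0.076 with median scaling. The complex III medians were −0.053 and −0.16, and −0.20 and −0.27 with median scaling. For recovery against untreated, median scaling put all genes at −0.090 in Sat III siRNA cells and −0.089 in scrambled cells. So with that scaling complex IV stayed slightly above all genes in this comparison, and complex III stayed below. No test was made of the difference between complexes, whose genes are not replicates.

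**Figure D3:**
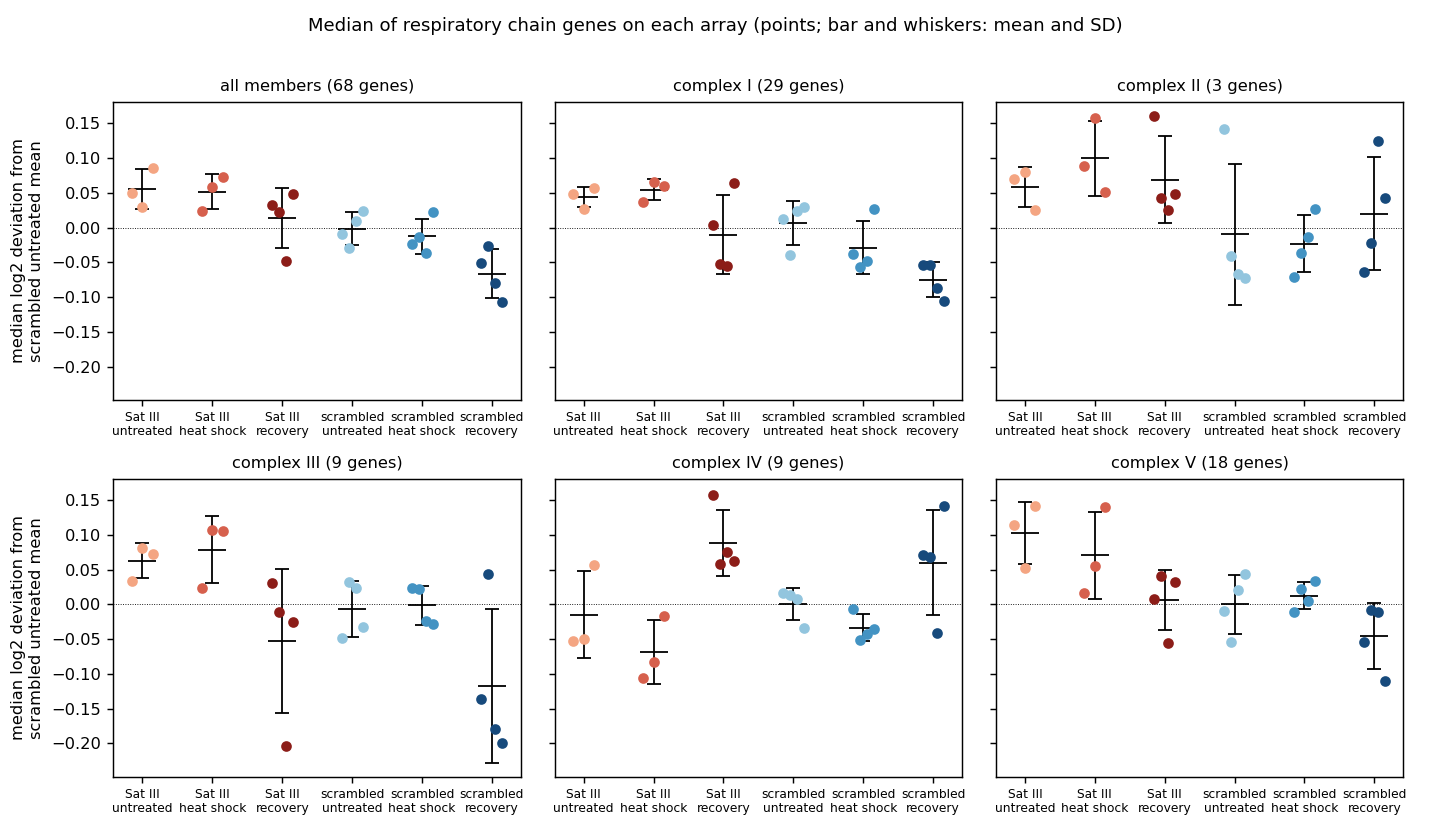
Median over genes of the log2 deviation from the mean of the scrambled untreated arrays, 1 point per array, for all 68 genes and for each complex, with the mean and SD of each group. The 4 Sat III siRNA recovery arrays lie above the 3 Sat III siRNA heat shock arrays in complex IV, and the recovery arrays of complex III spread more widely than those of the other groups.

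On single arrays, the complex IV median lay between 0.058 and 0.16 in Sat III siRNA recovery, against −0.11 to −0.017 in Sat III siRNA heat shock, so these groups did not overlap. It lay between −0.041 and 0.14 in scrambled recovery, against −0.051 to −0.0064 in scrambled heat shock, where the groups overlapped through 1 recovery array. The complex III median lay between −0.20 and 0.030 in Sat III siRNA recovery, against 0.024 to 0.11 in Sat III siRNA heat shock.

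Calls were few in recovery. Against heat shock, 2 of 68 genes rose and 1 fell in Sat III siRNA cells, where 21.5% of all tested genes changed, and 0 rose and 3 fell in scrambled cells, where 21.7% of all genes changed. Against untreated cells, 2 rose and 1 fell in Sat III siRNA cells, where 12.0% of all genes changed, and 0 rose and 1 fell in scrambled cells, where 10.9% of all genes changed. All the genes that rose belong to complex IV. The genes that fell belong to complexes III and V.

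UQCR10, a small accessory subunit of complex III, fell in recovery against heat shock in both arms. It read 10.08, 9.86, 9.82 and 10.31 on the Sat III siRNA recovery arrays, against 10.31, 10.38 and 10.48 on the Sat III siRNA heat shock arrays. It read 9.45, 9.55, 9.67 and 9.68 on the scrambled recovery arrays, against 9.96, 10.16, 10.01 and 10.15 on the scrambled heat shock arrays. Neither pair of groups overlapped, although 1 Sat III siRNA recovery array lay just under the lowest heat shock array.

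The change in UQCR10 was −0.37 ± 0.11 (SE) in log2 in Sat III siRNA cells, 1.29-fold lower (limma, adjusted p = 0.0146), and −0.48 ± 0.098 in scrambled cells, 1.40-fold lower (limma, adjusted p = 0.00101). All 3 of its probes were lower in both arms, from −0.22 to −0.48. The scrambled change passed on leaving out each of the 22 arrays in turn, from −0.52 to −0.44. It was −0.56 on replicates 1 and 2 and −0.40 on replicates 3 and 4. The Sat III siRNA change was lost without heat shock replicate 4 (−0.33), recovery replicate 2 (−0.32) or recovery replicate 3 (−0.31).

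UQCR11, another small subunit of complex III, read 7.38, 7.70, 7.85 and 7.67 in scrambled recovery, against 8.12, 7.78, 8.02 and 7.98 in scrambled heat shock. Recovery replicate 3 lay above heat shock replicate 2, so the groups overlapped. The gene fell by 0.32 in log2 (SE 0.098; limma, adjusted p = 0.0213), and the call was lost without heat shock replicate 1 (−0.27), heat shock replicate 3 (−0.31) or recovery replicate 1 (−0.23). The difference was −0.41 on replicates 1 and 2 and −0.24 on replicates 3 and 4. In Sat III siRNA cells it read 7.88, 7.60, 7.75 and 8.01 in recovery, against 8.08, 8.09 and 8.14 in heat shock, a difference of −0.29 that did not pass. The core proteins UQCRC1 and UQCRC2 did not pass in any comparison.

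COX5B encodes a nuclear subunit of complex IV on the matrix side. It read 13.2800, 13.2761, 13.2678 and 13.2303 in Sat III siRNA recovery, against 12.9481, 13.1178 and 12.9969 in Sat III siRNA heat shock and 13.0002, 12.9907 and 13.0418 in Sat III siRNA untreated cells. Every recovery array lay above every other array of its arm. COX5B rose by 0.24 ± 0.069 (SE) in log2 against heat shock (limma, adjusted p = 0.0145) and by 0.25 ± 0.069 against untreated cells (limma, adjusted p = 0.0196). The first call was lost without heat shock replicate 1 (0.21) or replicate 4 (0.23), and the second without untreated replicate 1 (0.25) or replicate 2 (0.24). In scrambled recovery COX5B read 13.1266, 13.1731, 12.9969 and 13.1981, and its differences of 0.12 from heat shock and 0.07 from untreated did not pass.

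COX6A1, the form of subunit 6A found outside muscle, read 11.95, 12.28, 11.94 and 11.79 in Sat III siRNA recovery, against 11.63, 11.66 and 11.72 in Sat III siRNA untreated cells, without overlap. It rose by 0.32 ± 0.093 (SE) in log2 (limma, adjusted p = 0.0270), a call that was lost without untreated replicate 1 (0.30), 2 (0.32) or 4 (0.35) or recovery replicate 2 (0.23). Within replicates the difference was 0.47 on replicates 1 and 2 and 0.15 on replicates 3 and 4, where replicate 4 was the only untreated array. In scrambled cells COX6A1 read 12.04, 11.89, 11.94 and 12.02 in recovery, against 11.84, 11.78, 11.67 and 11.63 in untreated cells. Those groups did not overlap either, but the difference of 0.24 did not pass (limma, adjusted p = 0.073).

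COX7A2, the form of subunit 7A found outside muscle, read 13.69, 13.50, 13.57 and 13.51 in Sat III siRNA recovery, against 13.24, 13.35 and 13.40 in Sat III siRNA heat shock, without overlap. It rose by 0.23 ± 0.077 (SE) in log2 (limma, adjusted p = 0.0343), and lost the call without heat shock replicate 1 (0.19) or 2 (0.24) or recovery replicate 1 (0.19) or 3 (0.23). Replicates 1 and 2 gave 0.30 and replicates 3 and 4 gave 0.14, the latter with replicate 4 as the only heat shock array. The scrambled difference was 0.14 and did not pass. COX7B, a neighbouring small subunit of the same complex, stood at −0.17 in recovery against untreated Sat III siRNA cells and −0.26 in scrambled cells, without passing.

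**Figure D4:**
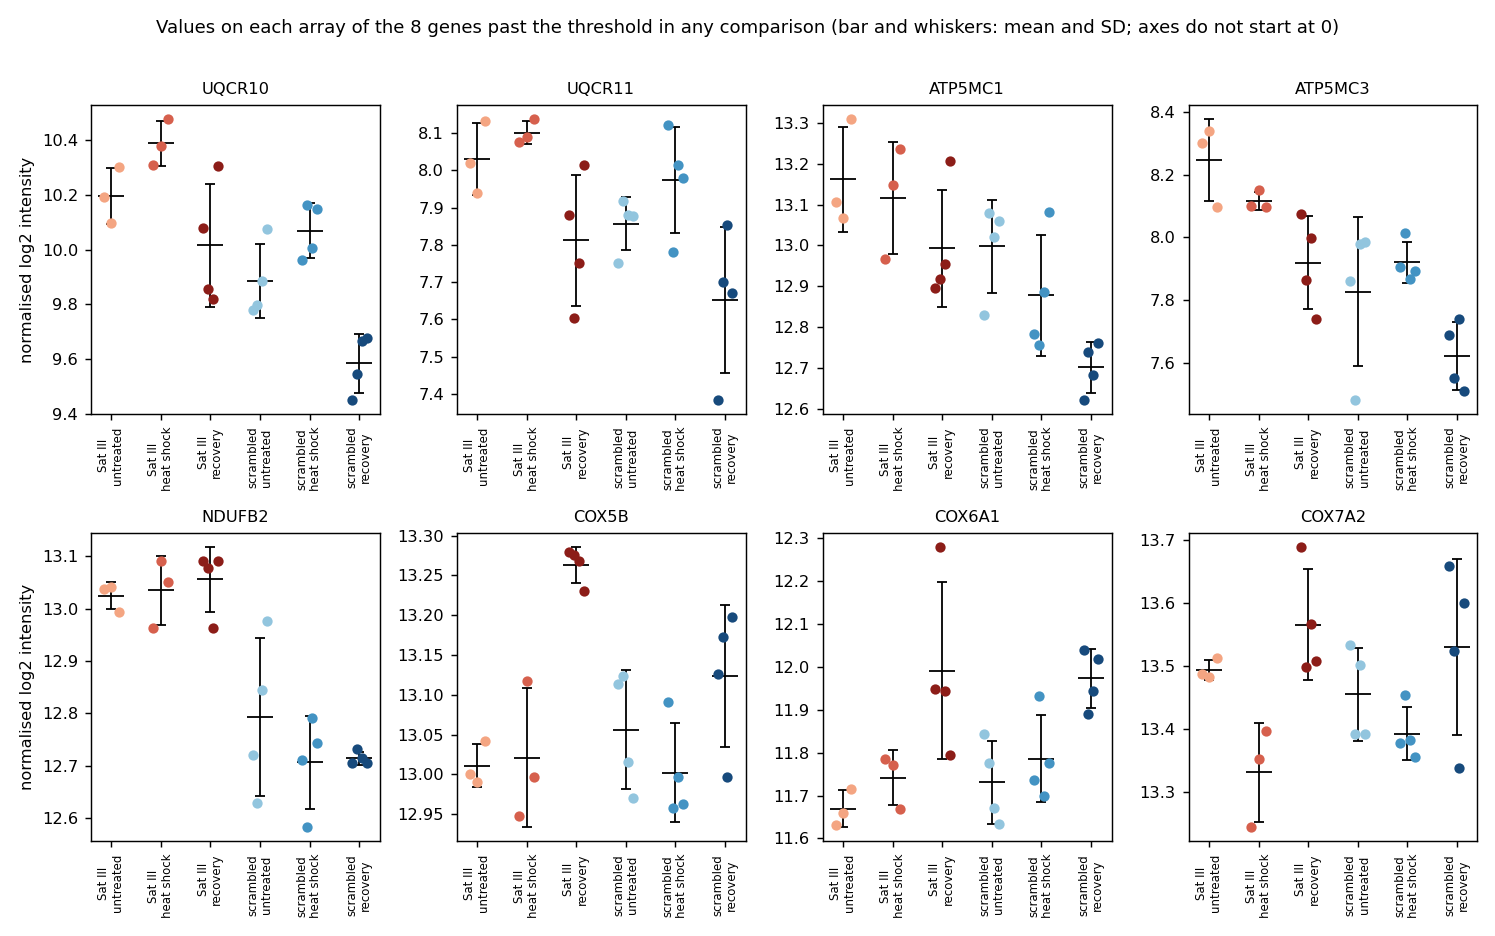
Normalised log2 intensity on each of the 22 arrays (points) of the 8 genes that passed in any comparison, with the mean and SD of each group and Sat III siRNA groups on the left. The 4 COX5B arrays of Sat III siRNA recovery lie above all other arrays, and the NDUFB2 arrays of the Sat III siRNA heat shock and recovery groups lie above those of the matching scrambled groups.

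ATP5MC1, ATP5MC2 and ATP5MC3 encode the same mature c subunit, which forms the rotating ring of complex V, behind different import sequences. ATP5MC3 read 8.07, 7.86, 7.998 and 7.74 in Sat III siRNA recovery, against 8.30, 8.34 and 8.10 in Sat III siRNA untreated cells, a fall of 0.33 in log2 (SE 0.11; limma, adjusted p = 0.0497) without overlap. It read 7.69, 7.55, 7.74 and 7.51 in scrambled recovery, against 7.90, 8.01, 7.87 and 7.89 in scrambled heat shock, a fall of 0.30 (SE 0.099; limma, adjusted p = 0.0356), also without overlap. The Sat III siRNA call was lost in 18 of 22 runs that each left out 1 array, all but those without untreated replicate 4 or recovery replicate 1 of the Sat III siRNA arm or untreated replicate 2 or 4 of the scrambled arm, with adjusted p up to 0.18 and log2 changes of −0.35 to −0.27. It was −0.35 on replicates 1 and 2 and −0.23 on replicates 3 and 4, where replicate 4 was the only untreated array. The scrambled call was lost without heat shock replicate 1, 2 or 4 or recovery replicate 2 or 4, with changes of −0.31 to −0.26.

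ATP5MC1 read 12.62, 12.74, 12.68 and 12.76 in scrambled recovery, against 12.83, 13.08, 13.02 and 13.06 in scrambled untreated cells, without overlap. It fell by 0.30 in log2 (SE 0.091; limma, adjusted p = 0.0380). The call was lost without untreated replicate 2, 3 or 4 or any 1 of the 4 recovery arrays, with changes of −0.32 to −0.27. With the mean of its 2 probes in place of the brighter, the change was −0.22 and did not pass (limma, adjusted p = 0.095). In Sat III siRNA cells the recovery difference was −0.17 and did not pass.

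Sat III siRNA cells stood slightly above scrambled cells in most genes of the chain, at each treatment. The median log2 difference was 0.055 in untreated cells, 0.069 after heat shock and 0.068 in recovery, against 0.00017, 0.0040 and 0.0066 for all tested genes. The difference was positive for 52, 54 and 58 of 68 genes. These genes were read on the same arrays and are not replicates, and the signs were not tested. It was similar within the replicate pairs, at 0.068, 0.060 and 0.080 on replicates 1 and 2 and 0.066, 0.074 and 0.076 on replicates 3 and 4. The values of 0.066 and 0.074 have replicate 4 as the only Sat III siRNA array. In untreated cells all 18 genes of complex V were positive, with a median of 0.094, while complex IV was at −0.0012 and, with median scaling, at 0.014. That scaling put all genes at −0.025. In the authors' table as labelled, whose columns did not all match their labels, the recovery median was −0.024, the opposite direction, and on the 15 arrays that matched it was 0.080. The per-array median over the 68 genes lay between 0.029 and 0.086 in Sat III siRNA untreated cells, against −0.030 to 0.024 in scrambled untreated cells, and the groups did not overlap. After heat shock it lay between 0.0240 and 0.0724, against −0.0359 to 0.0227 in scrambled cells, just without overlap. In recovery it lay between −0.048 and 0.049, against −0.107 to −0.027 in scrambled cells, and the groups overlapped.

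Few of these differences passed. Sat III siRNA cells were higher for 1 of 68 genes and lower for 0 in untreated cells, where 6.09% of all tested genes differed. They were higher for 1 and lower for 0 after heat shock, where 7.03% of all genes differed. They were higher for 3 and lower for 0 in recovery, where 10.5% of all genes differed.

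NDUFB2, an accessory subunit in the membrane arm of complex I, was higher in Sat III siRNA cells after heat shock and in recovery. It read 12.96, 13.09 and 13.05 in Sat III siRNA heat shock, against 12.71, 12.58, 12.79 and 12.74 in scrambled heat shock. It read 13.09, 13.08, 12.96 and 13.09 in Sat III siRNA recovery, against 12.71, 12.73, 12.71 and 12.71 in scrambled recovery. Neither pair of groups overlapped.

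The difference in NDUFB2 was 0.33 ± 0.077 (SE) in log2 after heat shock, 1.26-fold (limma, adjusted p = 0.00951), and 0.34 ± 0.071 in recovery, 1.27-fold (limma, adjusted p = 0.00279). It was 0.23 in untreated cells, where it did not pass (limma, adjusted p = 0.079). The recovery difference passed on leaving out each of the 22 arrays in turn, and the heat shock difference was lost without Sat III siRNA heat shock replicate 2 (0.30). Neither siRNA arm showed a change of NDUFB2 with treatment that passed.

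UQCR10 was higher in Sat III siRNA recovery than in scrambled recovery, by the arrays given above, which did not overlap. The difference was 0.43 ± 0.098 (SE) in log2, 1.35-fold (limma, adjusted p = 0.00570), and passed on leaving out each of the 22 arrays in turn. It rested on the brightest probe. The other two probes gave 0.08 and 0.16 and did not pass, and the mean of the 3 probes gave 0.22 (limma, adjusted p = 0.051). In untreated cells the difference was 0.31 and after heat shock 0.32, and neither passed.

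**Figure D5:**
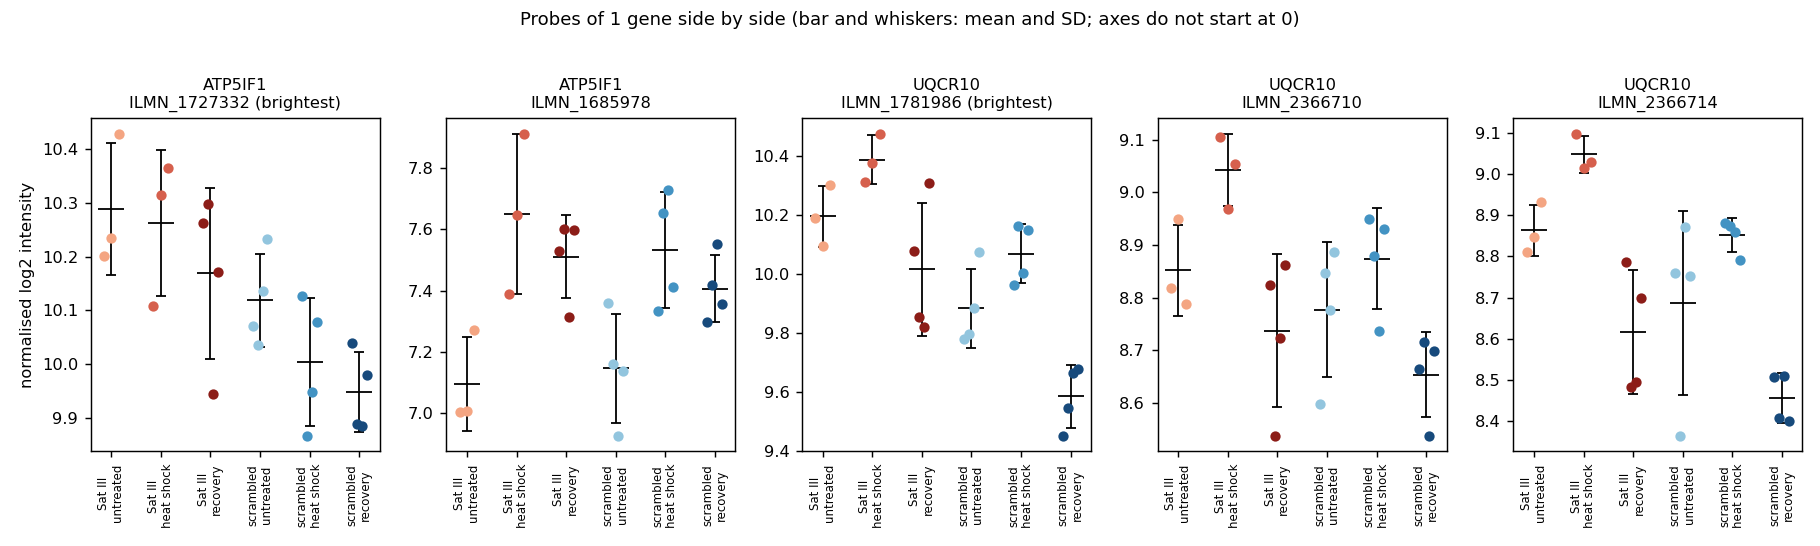
Normalised log2 intensity on each array of the 2 probes of ATP5IF1 and the 3 probes of UQCR10, with the mean and SD of each group. The dimmer ATP5IF1 probe is higher in both heat shock groups while the brighter one is not, and all 3 UQCR10 probes are lowest in recovery within each arm.

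ATP5MC3 was higher in untreated Sat III siRNA cells, at 8.30, 8.34 and 8.10, than in untreated scrambled cells, at 7.86, 7.48, 7.98 and 7.98, without overlap. The difference was 0.42 ± 0.11 (SE) in log2, 1.34-fold (limma, adjusted p = 0.0201). Scrambled replicate 2 was the lowest of these arrays, and the call was lost without it (0.30) and without Sat III siRNA untreated replicate 1 (0.39) or 2 (0.37). The difference was 0.65 on replicates 1 and 2 and 0.12 on replicates 3 and 4, where replicate 4 was the only Sat III siRNA array.

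ATP5MC1 was higher in Sat III siRNA recovery, at 12.89, 12.92, 12.95 and 13.21, than in scrambled recovery, at 12.62, 12.74, 12.68 and 12.76, without overlap. The difference was 0.29 ± 0.091 (SE) in log2 (limma, adjusted p = 0.0413). Its second probe gave 0.34 ± 0.088 over all tested probes (limma, adjusted p = 0.0163). That probe was also higher in untreated Sat III siRNA cells, by 0.37 ± 0.095 (limma, adjusted p = 0.0236), where the used probe gave 0.16 and did not pass. In scrambled recovery against heat shock it gave −0.34 ± 0.088 (limma, adjusted p = 0.00834), beside −0.18 on the used probe, which did not pass. The call on the used probe was lost in 9 of 22 runs that left out 1 array, with adjusted p up to 0.16: those without Sat III siRNA recovery replicate 2, 3 or 4, any 1 of the 4 scrambled recovery arrays, scrambled untreated replicate 3 or scrambled heat shock replicate 3, with differences of 0.22 to 0.32. The difference was 0.23 on replicates 1 and 2 and 0.36 on replicates 3 and 4.

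No gene of the chain passed in the test of the difference in response between the arms, and no other tested gene did. The heat shock change differed between Sat III siRNA and scrambled cells for 0 of 68 genes and 0% of all tested genes (limma), and the recovery change for 0 of 68 and 0% of all genes (limma). None of the 68 genes had an unadjusted limma p under 0.05 in either test, while 368 and 387 of all 10147 tested genes did. Those shares of all genes are small too, so 0 of 68 does not set the chain apart. So a call in 1 arm, such as COX5B in Sat III siRNA recovery, is not shown to differ from the other arm.

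Complex II was the smallest and had no call. Its 3 genes encode SDHA, the flavoprotein that oxidises succinate, and the membrane anchors SDHC and SDHD. The nearest to the threshold by unadjusted p was SDHC in heat shock, 0.22 higher in Sat III siRNA cells (limma, adjusted p = 0.31). SDHA stood at −0.14 in recovery against untreated scrambled cells (limma, adjusted p = 0.26) and 0.08 in Sat III siRNA cells.

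Among assembly factors, which build the complexes without staying in them, 48 of 53 listed genes were tested. In recovery against heat shock 3 rose and 4 fell in Sat III siRNA cells (14.6%, against 21.5% of all tested genes), and 4 rose and 7 fell in scrambled cells (22.9%, against 21.7% of all tested genes). In recovery against untreated cells 1 rose and 5 fell in Sat III siRNA cells (12.5%, against 12.0% of all tested genes). In scrambled cells 3 rose and 8 fell (22.9%, against 10.9% of all tested genes). In heat shock against untreated cells 1 rose and 3 fell in Sat III siRNA cells (8.33%, against 7.62% of all tested genes). In scrambled cells 2 rose and 3 fell in heat shock (10.4%, against 11.7% of all tested genes). SDHAF1, needed to mature complex II, fell in heat shock, by 0.53 ± 0.089 (SE) in Sat III siRNA cells (limma, adjusted p = 0.00031) and by 0.27 ± 0.077 in scrambled cells (limma, adjusted p = 0.0222). In recovery against heat shock it rose by 0.91 ± 0.083 in Sat III siRNA cells (limma, adjusted p = 5.68e-08) and by 0.54 ± 0.077 in scrambled cells (limma, adjusted p = 2.58e-05). COX19, which works in copper delivery to complex IV, rose in heat shock by 0.56 in Sat III siRNA cells and 0.38 in scrambled cells (limma, adjusted p = 0.00359 and 0.0160). DMAC1 gave −0.37 in Sat III siRNA cells and −0.34 in scrambled cells in heat shock, and TMEM70 gave −0.58 and −0.46. COX11 rose in heat shock by 0.62 in scrambled cells (limma, adjusted p = 0.00265) and did not pass in Sat III siRNA cells.

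Among 17 tested regulators of mitochondrial gene expression, 2 rose and 0 fell in recovery against heat shock in each arm (11.8%, against 21.5% of all tested genes in Sat III siRNA cells and 21.7% in scrambled cells). They were PPRC1, a coactivator related to PGC-1, at 0.48 in Sat III siRNA cells and 0.36 in scrambled cells, and GABPB1, a subunit of the ETS factor GABP, at 0.32 and 0.24 in the same order. TFB2M, a mitochondrial transcription factor, was 0.39 ± 0.10 (SE) higher in Sat III siRNA than in scrambled recovery (limma, adjusted p = 0.0144). Among 17 tested genes of the citric acid cycle and pyruvate dehydrogenase, 0 rose and 2 fell in recovery against untreated cells in each arm (11.8%, against 12.0% of all tested genes in Sat III siRNA cells and 10.9% in scrambled cells). OGDH, a subunit of the 2-oxoglutarate dehydrogenase, fell in recovery against untreated cells by 0.74 in Sat III siRNA cells and 0.93 in scrambled cells (limma, adjusted p = 0.000415 and 1.46e-05). SUCLG1, a subunit of the enzyme that makes succinate, was lower in Sat III siRNA cells at all 3 treatments, by −0.37 in untreated cells, −0.51 after heat shock and −0.43 in recovery. Among 18 genes of glycolysis, 1 rose and 2 fell in recovery against untreated cells in each arm. That is 16.7%, against 12.0% of all tested genes in Sat III siRNA cells and 10.9% in scrambled cells. ENO2 rose in recovery against untreated cells by 0.78 in Sat III siRNA cells and 0.76 in scrambled cells, and PFKP fell by 0.26 and 0.44. The 4 tested nuclear genes that the pattern does not take, for the subunits COX4I1, CYC1 and NDUFAB1 and the electron carrier CYCS, passed in none of the comparisons. None of the 13 subunits encoded by mitochondrial DNA had a probe.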

How the data were processed

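Expression was measured on 22 Illumina bead arrays from 300 ng of total RNA each. The deposited scanner table holds, per the file headers, a bead intensity on a linear scale, not normalised, and a detection p-value per probe (its software is not named in the sources). The authors also deposited a normalised table, as an intensity on a linear scale, used as an alternative: by rank correlation, 15 of its 22 columns matched the scanner array of the same label and 6 matched another array. Probe genes came from the platform annotation (28098 probes with 1 symbol and 20705 without 1 symbol, 13 of the latter with several).

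Intensities were background corrected and quantile normalised with neqc (limma 3.58.1, R 4.3.3, offset 16) and put on the log2 scale. Probes detected at p below 0.01 on at least 3 arrays were kept, with the brightest probe per gene. One limma model with 6 groups over all 22 arrays gave 11 contrasts, with Benjamini-Hochberg adjustment over 10147 genes at 0.05, and was tested on simulated data. Named genes were those that passed, the brightest gene and the gene of smallest adjusted p of each complex, tissue isoforms, genes whose probes differed in sign where 1 passed, and up to 4 passing genes per other list. The members, lists and rules were chosen with earlier results of these data known. The number of arrays limits precision. Alternatives were median scaling, other filters and probe rules, replicate blocks, leaving out arrays and the authors' table.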

Additional observations from a re-analysis of the deposited data

Results flagged for a closer look

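In 56 groups of 4 arrays (8 genes and 6 medians), 4 had 1 array whose gap to its nearest neighbour exceeded Dixon's critical share of the group's range, where chance flags about 1 in 20. For NDUFB2 in Sat III siRNA recovery, replicate 3 read 12.96 and the other arrays 13.08 to 13.09, a ratio of 0.898. It remained above every scrambled recovery array. The median of complex II in Sat III siRNA recovery was 0.16 on replicate 1 and 0.025 to 0.048 on the others, a ratio of 0.831. The same median in scrambled untreated cells was 0.14 on replicate 1 and −0.073 to −0.041 on the others, a ratio of 0.850. The median of complex IV in scrambled untreated cells was −0.034 on replicate 4 and 0.0078 to 0.016 on the others, a ratio of 0.836.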

How the results depend on the processing

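Signal over background limits NDUFC2 and ATP5MK; the other 66 of 68 tested genes were detected on every array. Of 195 single-gene results in 13 other settings, 105 kept their direction and call, 88 kept the direction only and 2 reversed: COX5B in the authors' table as labelled, at −0.045 for recovery against untreated and −0.018 for recovery against heat shock in Sat III siRNA cells. The cause was not tested; columns of that table did not all match their labels. The counts of calls, 3 in Sat III siRNA recovery against untreated and against heat shock, 1 and 3 in scrambled recovery against untreated and heat shock, and 1, 1 and 3 between arms, fell to 0 in all 7 with median scaling, with the authors' table as labelled and with replicates 3 and 4 alone (fewer samples). Replicates 1 and 2 alone gave 1 for scrambled recovery against heat shock, and 0 in scrambled recovery against untreated, in both Sat III siRNA recovery comparisons and in the heat shock and recovery comparisons between arms. Over all tested genes they called 10.1% in the first and 1.63% in the second. They called 2.35% and 11.1% in Sat III siRNA recovery against untreated and heat shock, and 2.46% and 2.89% between the heat shock and recovery arms. Fitting only the groups compared gave 0 in scrambled recovery against untreated, both Sat III siRNA recovery comparisons and untreated arms. The shares of all tested genes were 5.01% in scrambled recovery against untreated and 3.05% between untreated arms. They were 9.01% and 17.3% in Sat III siRNA recovery against untreated and heat shock. The 15 arrays whose labels matched gave 1 in scrambled heat shock, scrambled recovery against heat shock and both Sat III siRNA recovery comparisons in either table; the scanner table, chosen after seeing the data, also gave 0 in scrambled recovery against untreated and in the heat shock arms. In scrambled recovery against untreated, the mean of probes and no filter on dim probes gave 0, and no background correction and detection on all arrays gave 2. Detection on all arrays gave 2 in the heat shock arms, and the mean of probes and no background correction gave 5 in Sat III siRNA recovery against heat shock. Deviations from the group means correlated at 0.17 to 0.33 between arrays of replicate 4 and 0.052 to 0.26 for replicate 1, but −0.16 to 0.26 for replicate 2 and −0.026 to 0.17 for replicate 3, so not every pair of a number deviated together. Of 22 arrays, 14 correlated best with their own number, among them 6 of 6 of replicate 4. The median correlation was 0.13 within replicates 1 and 2 or within 3 and 4, and −0.12 between these pairs of replicates. With the replicate block, counts were 3 in scrambled recovery against untreated, 5 in Sat III siRNA recovery against heat shock, and 2, 3 and 5 between untreated, heat shock and recovery arms; with replicates 1 and 2 against 3 and 4 as a block, 3, 5, 3 and 4, the recovery arms aside. Leaving out 1 array gave 0 to 1 in scrambled heat shock, 0 to 4 and 1 to 4 in scrambled recovery against untreated and heat shock, 0 to 4 and 1 to 5 in Sat III siRNA recovery, and 0 to 3, 0 to 2 and 2 to 4 between untreated, heat shock and recovery arms. Of 143 median results in other settings, 26 moved by more than the SD of the per-array median, 0.031. The authors' table as labelled reversed the medians of recovery between arms (−0.024) and of heat shock (0.047 in Sat III siRNA and 0.018 in scrambled cells) and of the difference between arms in recovery change (−0.038; −0.0016 on replicates 3 and 4 alone), and the mean of probes that of heat shock (0.0061 and 0.0057). Over all tested genes, median scaling called 43 to 457 (0.424% to 4.5%) in the 9 comparisons.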
